A study of Mus musculus with 6 samples.

Results

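The common gamma chain receptors are the cell-surface receptors of the cytokines IL-2, IL-4, IL-7, IL-9, IL-15 and IL-21, and they were examined here as 8 genes, Il2ra, Il2rb, Il2rg, Il7r, Il4ra, Il15ra, Il9r and Il21r. Around each gene, accessible intervals (peaks) measured by ATAC-Seq were collected over a window of the gene body plus 50 kb to either side, in the mm9 build with the GENCODE annotation made for it. A separate count took the peaks within 1 kb of an annotated start of the gene itself. The 8 windows held 43 distinct peaks of the 32527 in the list, and the 8 genes are among 22380 protein-coding genes.

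ATAC-Seq reads open chromatin through the cuts of a transposase, and the cells were Beko, a progenitor T-cell line of the mouse that has constant Notch activity. The 6 libraries comprised 3 of cells given the γ-secretase inhibitor DAPT (GSI) over 24 h, at 10 mg/ml by the sample labels and with the same figure in μg/ml in the methods of the study, and 3 of cells given DMSO over the same time. GSI blocks release of the Notch intracellular domain, the partner of the DNA-binding factor RBPJ. The authors deposited 1 list of peaks merged over all 6 libraries, so no value below has a replicate error, read depth per library was not used, and GSI against DMSO was not analysed here.

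All of these receptors share the common gamma chain, encoded by Il2rg, and signal through the kinases JAK1 and JAK3 to STAT factors. Il2ra (CD25) and Il15ra encode private chains that raise affinity for IL-2 and IL-15, and Il2rb encodes the signaling chain that both cytokines share. Il4ra, Il7r, Il9r and Il21r encode the chains that join the common gamma chain in the remaining receptors. In the thymus, IL-7 receptor signals sustain early progenitors, and CD25 marks a stage of T-cell progenitors. By ChIP-Seq of RBPJ in these cells, the study reported both static and dynamic sites at Il2ra. It called dynamic the sites where GSI reduced RBPJ binding, and static the others. The study also probed Il2ra by ChIP-qPCR, with primers upstream of the gene and downstream of its start.

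The cell type label was checked against promoters of lineage genes. All 7 T-lineage genes found as protein-coding in the annotation (Cd3e, Cd3g, Lck, Bcl11b, Tcf7, Gata3 and Rag1) had a peak within 1 kb of an own start. The B-lineage genes Pax5, Cd79a, Ebf1 and Ms4a1 had none there, and neither did any of the 5 myeloid genes (Csf1r, Lyz2, Itgam, Mpo, Cebpa). Of all coding genes, 46.9% had such a peak, and of those with CpG-poor starts, as defined below, 23.8%. Starts were CpG-poor at all of these B-lineage genes, at 4 of the 5 myeloid genes and at 5 of the 7 T-lineage genes. Absence of a peak is thus the more common outcome at such starts. The remaining T-lineage gene of the list, Ptcra, has another gene type in the annotation and was not counted.

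The sequences that bear on Il2ra are given first. The following are the 250 bases before the first annotated start of Il2ra (chr2:11564169-11564418, plus strand) and of Il21r (chr7:132746693-132746942, plus strand), neither of which had a peak at its start, and of Il15ra (chr2:11626664-11626913, plus strand), the member with the widest peak at its starts. The Il15ra bases also lie outside a peak, since its peak begins 39 bp downstream of the first start. Capitals mark CpG dinucleotides, of which Il2ra had 3, Il21r 4 and Il15ra 1, all read from mm9.
Il2ra upstream: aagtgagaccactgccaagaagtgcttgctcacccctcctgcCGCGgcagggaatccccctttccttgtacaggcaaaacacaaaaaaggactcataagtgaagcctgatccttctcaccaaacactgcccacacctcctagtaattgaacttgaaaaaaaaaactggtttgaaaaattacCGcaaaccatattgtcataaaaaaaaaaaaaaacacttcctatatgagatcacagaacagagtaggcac
Il21r upstream: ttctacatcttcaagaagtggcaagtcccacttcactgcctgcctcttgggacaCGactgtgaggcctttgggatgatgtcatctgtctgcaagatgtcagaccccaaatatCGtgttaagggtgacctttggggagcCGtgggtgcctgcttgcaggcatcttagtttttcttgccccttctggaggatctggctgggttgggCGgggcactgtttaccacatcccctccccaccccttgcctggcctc
Il15ra upstream: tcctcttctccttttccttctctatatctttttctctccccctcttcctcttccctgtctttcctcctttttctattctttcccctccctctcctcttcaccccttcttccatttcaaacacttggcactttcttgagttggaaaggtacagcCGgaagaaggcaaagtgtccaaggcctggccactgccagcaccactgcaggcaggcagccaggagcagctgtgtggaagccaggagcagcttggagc

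The next stretches, of 200 bases each on the plus strand of mm9, come from Il2ra peaks away from every annotated start. They are shown because they hold the RBPJ motif TGGGAA, or its known variant TGAGAA, on either strand, and capitals mark these letters. The first lies 19.2 kb upstream of Il2ra (chr2:11544948-11545147), the second 6.4 kb upstream (chr2:11557865-11558064), the third 14.8 kb downstream in intron 1 (chr2:11579368-11579567) and the fourth in the widest intronic peak (chr2:11585326-11585525).
Il2ra upstream peak, far: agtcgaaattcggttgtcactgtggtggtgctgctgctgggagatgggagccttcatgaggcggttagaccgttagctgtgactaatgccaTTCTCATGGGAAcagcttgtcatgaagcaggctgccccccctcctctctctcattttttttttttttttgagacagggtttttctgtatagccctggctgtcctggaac
Il2ra upstream peak, near: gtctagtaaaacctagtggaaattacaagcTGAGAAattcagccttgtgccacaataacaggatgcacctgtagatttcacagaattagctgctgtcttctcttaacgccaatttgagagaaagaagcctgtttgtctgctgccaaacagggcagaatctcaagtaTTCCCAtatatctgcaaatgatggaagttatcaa
Il2ra intron 1 peak, narrow: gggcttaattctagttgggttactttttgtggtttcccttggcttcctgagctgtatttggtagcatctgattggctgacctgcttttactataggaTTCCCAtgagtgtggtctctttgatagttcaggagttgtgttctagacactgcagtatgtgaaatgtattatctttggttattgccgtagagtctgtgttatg
Il2ra intron 1 peak, wide: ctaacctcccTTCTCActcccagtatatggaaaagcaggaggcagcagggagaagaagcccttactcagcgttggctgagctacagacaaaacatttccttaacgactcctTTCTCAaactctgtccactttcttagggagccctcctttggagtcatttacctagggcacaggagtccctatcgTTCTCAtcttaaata

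A peak within 1 kb of an own start was present at 6 of the 8 receptor genes, and 2 of them, Il2ra and Il21r, lacked one. Across all protein-coding genes the share with such a peak was 46.9% (95% Wilson interval 46.3 to 47.6%), which covers counting error only, as do the other intervals below. At 5 genes (Il2rb, Il2rg, Il4ra, Il15ra and Il9r) a start lay inside the peak, against 44.0% of coding genes. The absence at Il2ra was thus not unique to Il2ra within the family. Il21r, the receptor chain of IL-21, was farther from accessible chromatin than Il2ra, with its nearest peak 26775 bp from a start against 5128 bp at Il2ra. Il7r lay just inside the limit, since its nearest peak began 991 bp from its start, and Il2ra was the next member outside it.

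**Figure D1:**
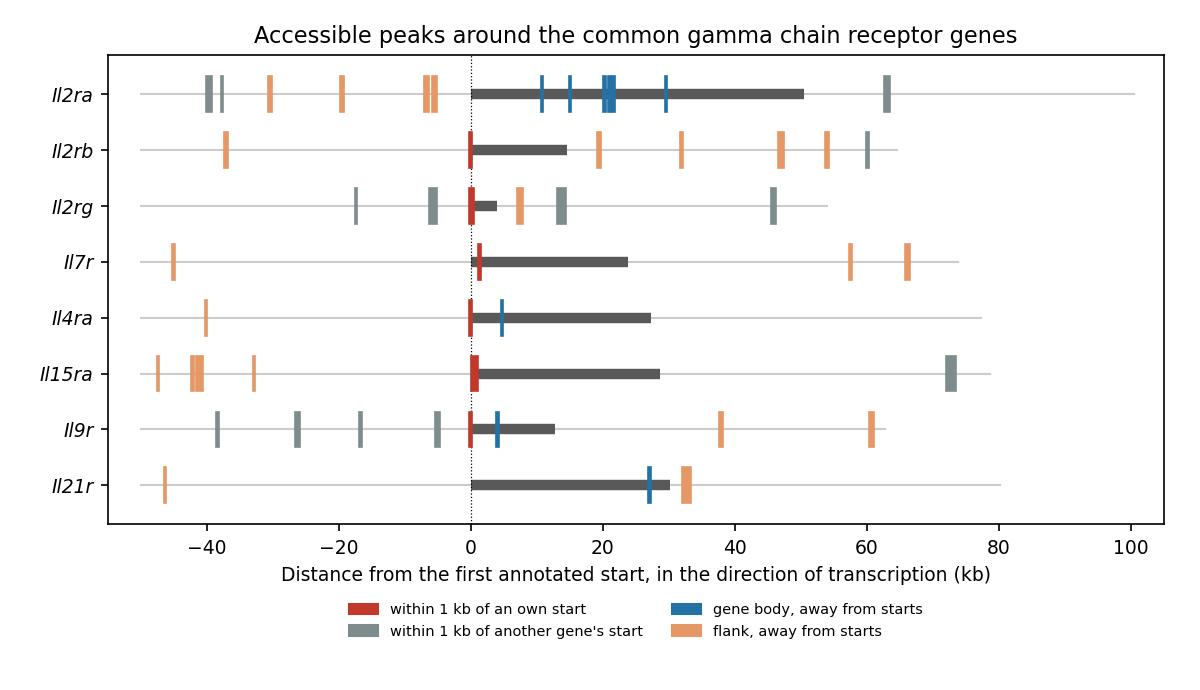
Peaks (colored blocks, drawn to scale along the horizontal axis in kb) in the windows of the 8 receptor genes, with the first annotated start at 0, transcription to the right, gene bodies as dark bars and the windows as thin lines. Red blocks at the starts are present in 6 rows and absent in the rows of Il2ra and Il21r, and Il2ra has 5 blue blocks within its gene body.

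Il2ra (chromosome 2, 11564419 to 11614818, plus strand) had the highest count of the family, with 12 peaks in its window, while the other 7 genes had 3 to 8. Per 100 kb of window this was 7.98 peaks, the highest density of the 8 as well, and 93.9% of coding genes had a lower density. Only 3.19% of coding genes had 12 or more window peaks, and the median was 3. Of the 12 peaks, 3 lay within 1 kb of the starts of other genes. These were 2 at Rbm17, which encodes a splicing factor, and 1 at Il15ra. The remaining 9 lay away from every start, 4 upstream and 5 in the gene body. With flanks of 10 kb in place of 50 kb, 7 peaks remained.

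The 5 gene-body peaks of Il2ra all lay in intron 1, which spans 31.2 kb of the 50.4 kb of the gene. Their nearest edges were 10518, 14835, 20009, 20734 and 29342 bp downstream of a start. Their widths were 400, 284, 407, 1038 and 300 bp. The fourth, at 11585211 to 11586248, was wider than 87.2% of all peaks, whereas only 1.62% of peaks were narrower than the second and 2.94% narrower than the fifth. The 4 upstream peaks away from starts were of more even width, at 644, 640, 693 and 711 bp in order towards the gene. Between the last of them and the first intronic peak, a stretch of 15.7 kb around the start (11559292 to 11574994) held no peak. It reached 5127 bp upstream and 10575 bp downstream of the first start.

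Coding genes with 5 or more gene-body peaks, as Il2ra has, made up 3.51% of the annotation. Among these 786 genes, 82 (10.4%, Wilson interval 8.48 to 12.8%) had no peak within 1 kb of an own start. When only gene-body peaks away from own starts were counted, a count added after the values were seen, the share was 16.9%. From the other side, 11874 coding genes had no peak at their starts, and 14.7% of those had any gene-body peak.

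**Figure D2:**
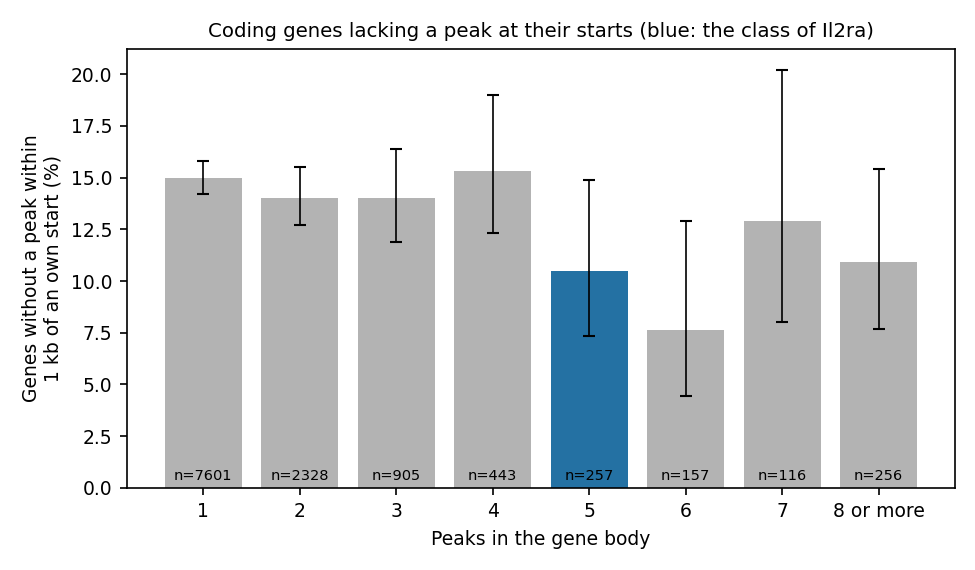
Share of coding genes (%) without a peak within 1 kb of an own start, by the number of peaks in the gene body for genes with at least 1, with 95% Wilson intervals as error bars and the number of genes in each bar. Among the bars drawn the share lies between 7.64% (6 peaks) and 15.3% (4 peaks) and is 10.5% with 5, the class of Il2ra in blue, while genes with no gene-body peak (98.2%) are not drawn.

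The genes most like Il2ra were sought among coding genes without a peak at their own starts and with a gene body of 1.5-fold shorter to 1.5-fold longer than that of Il2ra. Of 1328 such genes, 914 had no gene-body peak, 8 had the same number as Il2ra and 1 had more. The 5 closest in length among those 8 were Slc28a1, Hivep3, Lamc3, Pdcd1lg2 and Camk2a, each with 5 gene-body peaks and with 8 (Pdcd1lg2) to 16 (Camk2a) window peaks. Their nearest peak was 1418 bp (Hivep3) to 19684 bp (Slc28a1) from an own start, against 5128 bp at Il2ra. The choice of genes without a peak within 1 kb sets a lower bound on these distances.

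Il15ra (chromosome 2, 11626914 to 11655613, plus strand) is the neighbor of Il2ra, with 12.1 kb between the genes and no peak in that gap. Their windows shared 5 peaks, and 4 of the 6 peaks of the Il15ra window were intronic peaks of Il2ra. A peak of 1008 bp (11626953 to 11627960) lay at the starts of Il15ra and covered 12 of its 16 annotated starts. The sixth peak, of 1547 bp, lay at the starts of Ankrd16 and Fbxo18 and was the widest in any of the 8 windows. The paired genes thus differed, since Il15ra had a wide peak at its starts and no other within its body, while Il2ra had 5 in its body and none at its starts.

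Il2rb (chromosome 15, 78310983 to 78325496, minus strand) had 7 window peaks. A narrow one of 455 bp (78325333 to 78325787) covered the first of its starts, reaching 291 bp upstream and 163 bp downstream, and the other start had none within 1 kb. No further peak lay in the gene body. The other 6 were 5 flanking peaks away from starts and 1 at the start of Kctd17. Of the 5, 4 lay downstream of the gene and 3 were centered within Tmprss6, which encodes a serine protease of iron metabolism and had no peak at its own start.

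Il2rg (chromosome X, 98459717 to 98463594, minus strand), the shared chain, is the shortest gene of the set at 3.88 kb and had 6 peaks. Its peak of 764 bp (98463114 to 98463877) contained 3 of its 4 starts and lay within 1 kb of the start of the predicted gene Gm20489. Of the other 5, 4 lay at starts of Snx12, Foxo4 and Med12, and 1 was centered within Foxo4. The window density of 5.78 peaks per 100 kb stood on a chromosome that averaged 0.378 per 100 kb. All 8 windows were denser than their whole chromosomes, from 7.98 against 1.48 at Il2ra to 2.31 against 1.39 at Il21r.

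Il7r (chromosome 15, 9435916 to 9459631, minus strand) had 4 peaks in its window. None covered its single annotated start. The peak nearest to it, of 460 bp (9458181 to 9458640), lay in intron 1 from 991 to 1450 bp downstream, so that Il7r counted among genes with a promoter peak at a limit of 1 kb and not at 500 bp. The others were flanking peaks 44.8 kb upstream and 57.3 and 65.7 kb downstream of the start.

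Il4ra (chromosome 7, 132695785 to 132722986, plus strand) and Il21r (chromosome 7, 132746943 to 132777084, plus strand) are also neighbors, 24.0 kb apart, and had the lowest counts of the family with 3 peaks each. Il4ra had a peak of 501 bp (132695469 to 132695969) over 2 of its 3 starts, 1 of 316 bp in intron 1 and 1 flanking peak 40.0 kb upstream. The intronic peak of Il4ra was also counted in the Il21r window. Il21r had a peak of 500 bp in intron 7 (132773783 to 132774282) and another of 1336 bp downstream of the gene (132778927 to 132780262), which was wider than 95.8% of all peaks. The stretch without a peak around its start was 73.1 kb long, against 15.7 kb at Il2ra.

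Il9r (chromosome 11, 32087541 to 32100279, minus strand) had 8 window peaks, second to Il2ra. The peak at its starts (564 bp, 32100088 to 32100651) covered all 3 of its starts, and another of 445 bp lay in intron 1, 3.8 kb downstream. Of the other 6, 4 lay at the starts of Snrnp25, Rhbdf1, Mpg and Nprl3, and 2 were in the downstream flank.

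**Figure D3:**
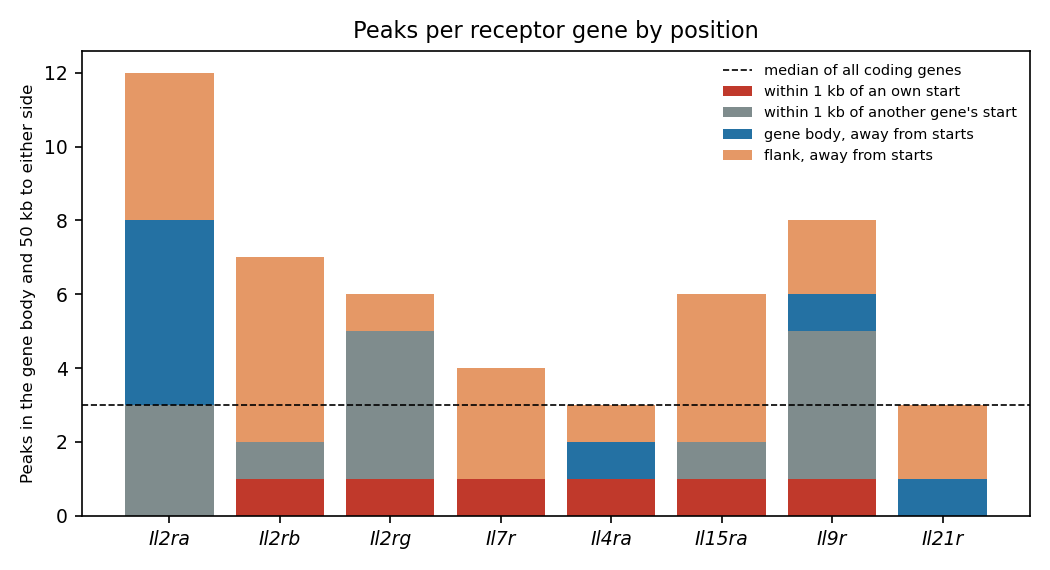
Number of peaks in each receptor gene's window, split by position into those within 1 kb of an own start, within 1 kb of another gene's start, in the gene body and in the flank. The dashed line is the median of all coding genes (3 peaks), which Il4ra and Il21r match and the other 6 genes exceed.

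The positions were then compared across the family. Of the 43 distinct peaks, 6 lay at own starts, 12 at starts of other genes only and 25 away from every annotated start. Of the 25, 8 lay in the body of a receptor gene, and 7 of these 8 were in intron 1 (5 in Il2ra, 1 in Il4ra and 1 in Il9r), the exception being Il21r. The median width of the 6 peaks at own starts was 532 bp, and that of all promoter peaks 855 bp. Away from starts the order was the opposite, with a median of 583 bp for the 25 family peaks and 465 bp for all such peaks. None of the 43 peaks had a copy elsewhere in mm9 of at least 95% identity over 80% of its length, and no window contained an unsequenced base.

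The base composition of the starts was compared next, because CpG-rich promoters are often open in many cell types. A start was called CpG-rich where the bases within 500 bp to either side were at least 50% GC and had 0.6 or more of the CpG dinucleotides that their C and G content predicts. Only Il4ra passed, with an observed to expected ratio of 0.63. The ratios of the others were 0.10 at Il2rg, 0.11 at Il7r, 0.17 at Il2ra, 0.21 at Il9r and Il21r, 0.22 at Il2rb and 0.37 at Il15ra. Of the 7 genes with CpG-poor starts, 5 had a peak within 1 kb of a start, with Il7r at 991 bp among them and lost at 500 bp. Of all coding genes with CpG-poor starts, 23.8% had a peak within 1 kb. Among genes with CpG-rich starts the share was 76.2%. The CpG ratio of Il2ra and Il21r lay within the range of the CpG-poor members that had a peak.

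**Figure D4:**
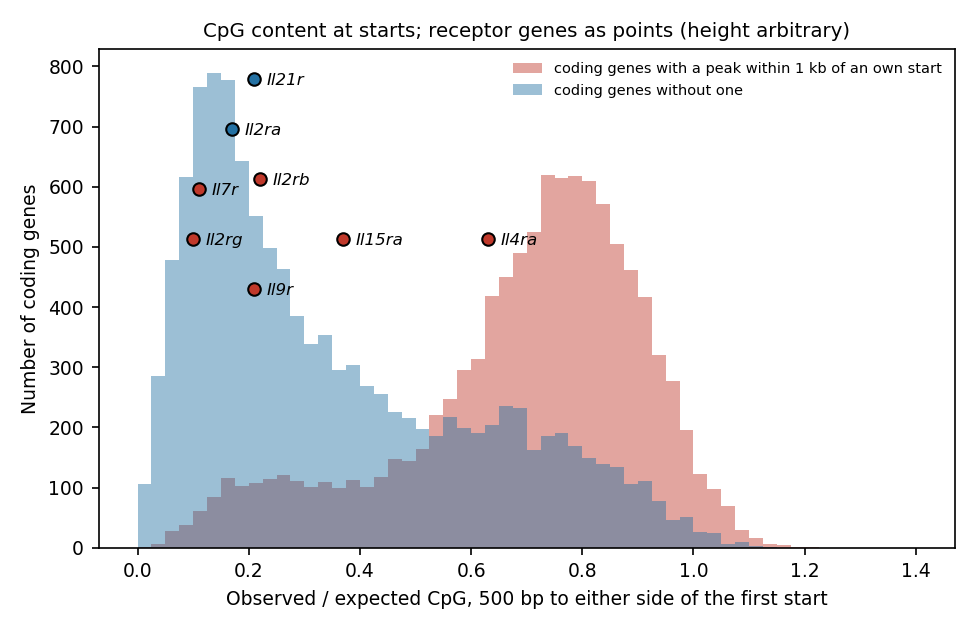
Observed to expected CpG ratio within 500 bp to either side of the first start, as histograms of coding genes with (red) and without (blue) a peak within 1 kb of an own start, and the 8 receptor genes as points in the same colors (their height has no meaning). Il2ra and Il21r (blue points) lie at 0.17 and 0.21, among the red points of Il2rg, Il7r, Il9r and Il2rb.

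The RBPJ motif was then located in the peaks. TGGGAA was present on either strand in 15 of the 43 peaks (34.9%), against 42.5% of all peaks. In the central 200 bp, a part of equal length in every peak, it was present in 7 of 43 (16.3%), against 15.3% of all peaks. Away from starts it was in 6 of 25 (24.0%), against 16.4% of all such peaks, and 1 of the 6 was at Il2ra. Among the 6 peaks at own starts, those of Il2rg (with 2 sites), Il4ra, Il15ra and Il9r contained TGGGAA and those of Il2rb and Il7r did not. Of the 9 Il2ra peaks away from starts, 3 held TGGGAA anywhere in the peak, where 42.5% of all peaks did. A further 3 held TGAGAA without TGGGAA, and 3 held neither. The share of all peaks with TGAGAA over the whole peak is not given here, so these counts do not set Il2ra apart. No peak in the 8 windows held a head-to-head pair of these forms (TGGGAA or TGAGAA, then 15 to 17 bases, then the reverse complement of either), which was found in 0.178% of all peaks.

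The sites of Il2ra differed in their arrangement. In the peak 19.2 kb upstream (11544578 to 11545217), a TGAGAA on the minus strand from 11545039 abutted a TGGGAA on the plus strand from 11545045, which gives the unbroken run of capitals in the first of the stretches printed for Il2ra peaks. In the peak 6.4 kb upstream, TGAGAA from 11557895 and TGGGAA from 11558031 lay on opposite strands. The intronic peak 14.8 kb downstream had a single TGGGAA from 11579465, close to the middle of the peak. The widest intronic peak had 3 TGAGAA sites on the minus strand, from 11585336, 11585437 and 11585511, and no TGGGAA. Both primers that the study used for ChIP-qPCR upstream of Il2ra matched the genome exactly within the peak 19.2 kb upstream. Of its pair downstream of the start, 1 primer (11579593 to 11579612) only touched the end of the peak 14.8 kb downstream, at 11579595. The other lay past that end, so that most of the stretch between them was outside the peak.

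Of 6 further short cores searched on both strands of the central 200 bp, CAGCTG of E proteins was the most frequent in the family, in 11 of the 25 peaks away from starts (44.0%), against 25.7% of all such peaks. TGTGGT of RUNX factors was in 8 of 25, against 25.6% of all such peaks, and in 5 of the 9 Il2ra peaks. GGAAGT of ETS factors was in 7 of 25 (28.0%, against 21.3%) and in none of the 9 Il2ra peaks. TTCNNNGAA of STAT factors, which act downstream of these receptors, was in 3 of 25 (12.0%, against 5.32%), and none of the 3 was at Il2ra. CTTTGA of TCF/LEF factors was in 1 of 25, against 16.4%, which is the narrow intronic peak of Il2ra, and GGGCGG of SP factors was in 2 of 25, against 9.28%. A match of letters does not show that a factor binds.

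The other genes of the pathway were taken from a list of 16 ligands, transducers and partner chains. Of these, 8 had a peak within 1 kb of an own start, near the 46.9% of all coding genes. The ligand genes Il2, Il4, Il7, Il9, Il15 and Il21 all lacked one, and Il2, Il7 and Il15 had no peak in their windows. The kinase genes Jak1 and Jak3, the STAT genes Stat3, Stat5a, Stat5b and Stat6 and the feedback inhibitor Socs1 all had a start inside a peak. The window of Jak3, the kinase bound to the common gamma chain, held 14 peaks. Cish, another feedback inhibitor, had none within 1 kb but 7 peaks in its window, the nearest 5864 bp from a start. Of the partner chains, Crlf2, which pairs with the IL-7 receptor chain to form the receptor of TSLP, had a start inside a peak, and Il13ra1, which pairs with the IL-4 receptor chain, had no peak in its window.

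A list of 23 type I cytokine receptor chains outside the family was also counted, and 2 of them (Crlf2 and Il13ra1) are also in the pathway list. Of the 23, 6 (Crlf2, Epor, Ghr, Il12rb2, Il27ra and Il3ra) had a peak within 1 kb of an own start, against 6 of 8 in the family. Of all coding genes, 46.9% had such a peak. Of the 17 chains with CpG-poor starts, 3 had one, against 5 of 7 in the family, with Il7r at 991 bp among the 5. Among all coding genes with CpG-poor starts, 23.8% had one. The median number of window peaks was 4 in these chains and 6 in the family. Il11ra1 had 6 gene-body peaks and none within 1 kb of an own start, the nearest at 3894 bp. Whether these 6 lie away from starts of other genes, as those of Il2ra do, was not examined here. Il12rb1 had the most window peaks of the list, 17, and its nearest was 1546 bp from a start. No test of this difference was made, since the genes were chosen with results known.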

How the data were processed

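The 3 GSI and 3 DMSO libraries of Beko cells were grouped by their labels, which do not say whether they came from separate cultures. Per the study's methods, which refer to its ChIP-Seq pipeline for the first steps, HISAT2 2.2.1 aligned reads to mm9 with 1 alignment kept per read, Picard removed duplicates and MACS2 called peaks with no input. Peaks found in 3 of 6 libraries and outside blacklisted regions were kept. A shift of read ends for the transposase is not given in the sources used here. A peak may therefore come from a single treatment, and the list does not say which. The deposited values are chromosome, start and end in bp. The score is 0 for every peak, and names and strands are empty. Read depth of each library was not used.

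Starts were counted from 0 in the list and are printed counted from 1. NCBIM37, the same build as mm9, held every peak within its chromosomes. A gene's starts were those of all its GENCODE vM1 transcripts, and introns were numbered on its coding transcript of greatest span. Distances were measured from a start to the nearest edge of a peak. RefSeq starts came from promoter sequences of GRCm38, of which 8 of 8, for 7 of the genes (none for Il2rb), matched mm9 exactly. Copies were searched with minimap2 2.31, and Wilson intervals came from scipy 1.17.1 in Python 3.11.15. Distance and motif functions were tested on simulated data.

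The family, its windows and all lists were chosen with earlier results of these data known. The rule for named genes took the 8 members, genes with a start within 1 kb of a window peak, the fixed lists and the 5 genes most like Il2ra. Il2ra peaks to print were limited, after the values were seen, to those away from starts, and stretches were placed around their motif sites in place of the peak centers. The upstream bases of Il21r were also added then. The comparison of GSI with DMSO, planned for values per library, was not run. With 1 merged list no test was made, and every comparison is a description. A further gene of the B-lineage list is not reported here.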

Additional observations from a re-analysis of the deposited data

How the results depend on the processing

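No paired analysis was possible because all 6 libraries are merged into 1 list of positions, and single libraries could not be left out for the same reason. The number of receptor genes with a peak at a start was 4 to 6 over all alternatives. It was 5 at 500 bp or with the start inside the peak, where Il7r was lost, and 4 with peaks of at least 500 bp, a filter that removes the narrow peaks of Il2rb and Il7r. Il2ra and Il21r lacked such a peak up to 5 kb from their starts, and adding RefSeq starts, chosen after seeing the data, left the count at 6. The share of coding genes with a peak at a start was 45.7% at 500 bp, 49.0% at 2 kb, 53.8% at 5 kb, 44.0% with the start inside, 43.8% with peaks of at least 500 bp and 46.1% with starts of coding transcripts. Counts of peaks followed the window and the width filter. Distinct peaks were 22, 26 and 65 at flanks of 10, 20 and 100 kb and 27 with peaks of at least 500 bp, and Il2ra had 7 both at 10 kb and with that filter. The windows end between peaks, with the closest peak inside an edge 1716 bp from it and the closest outside 542 bp from it. The share of genes rich in gene-body peaks without one at a start was 12.8% at 500 bp, 8.40% at 2 kb, 13.2% with starts of coding transcripts and 16.9% for gene-body peaks away from own starts, the last chosen after seeing the data. In whole peaks, TGGGAA was in 34.9% of family peaks and 42.5% of all peaks. With TGAGAA allowed in the central 200 bp, the share was 27.9% of family peaks and 26.9% of all peaks. How strongly each site is open, and in which treatment, cannot be told from a list without values.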

Other observations

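The windows of the receptor genes also hold starts of unrelated genes, and these differed between loci. At Il9r, the first starts of 3 other coding genes lay in the window, and all 3 (Snrnp25, Rhbdf1 and Mpg) had a peak within 1 kb of an own start. Nprl3, whose introns are known to hold enhancers of the α-globin genes in erythroid cells, had a peak of 459 bp at 1 of its annotated starts in the same window. At Il2rg, 4 of 6 other first starts had a peak, including Gm20489, whose peak is that of Il2rg itself. The widest was of 1335 bp, at Foxo4, which encodes a forkhead factor. At Il2rb none of the 3 others (Tmprss6, C1qtnf6 and Sstr3) had one, although 3 peaks were centered within Tmprss6. The windows of Il7r and Il21r held no first start of another coding gene, and their 4 and 3 peaks included no promoter peak of a neighbor. The median of all coding genes was 3 window peaks.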
